A study of Mus musculus with 6 samples.

Results

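The 10 genes described here encode the epithelial sodium channel of the kidney tubule and the proteins that set its activity and that of the thiazide-sensitive salt transporter. They were chosen by name, as the channel subunits Scnn1a, Scnn1b and Scnn1g, the hormone-sensing genes Nr3c2 and Hsd11b2, the kinase and ligase Sgk1 and Nedd4l, and the WNK pathway genes Wnk1, Wnk4 and Klhl3. All 10 were found among the 23396 genes of the deposited table, and all 10 were among the 14354 genes tested. The RNA came from right kidneys of male mice aged 6 months. The knockout group was 3 mice of strain C57BL/6N-Far2tm2a(KOMP)Wtsi/2J, homozygous for the Far2 knockout allele, and the wild-type group was 3 C57BL/6N mice. Far2 encodes a fatty acyl-CoA reductase. Sequencing covered whole kidney, so fewer cells of a type and less RNA per cell cannot be told apart in any value below.

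Aldosterone acts in the distal convoluted tubule, connecting tubule and collecting duct. It binds the mineralocorticoid receptor, which raises transcription of the kinase SGK1, and SGK1 phosphorylates the ubiquitin ligase NEDD4L so that fewer sodium channels are taken from the apical membrane. WNK kinases act on the sodium chloride cotransporter of the distal convoluted tubule through the kinases SPAK and OSR1, and KLHL3 marks WNK kinases for degradation.

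The libraries held from 15261362 to 20631158 fragments, and the biological coefficient of variation was 10.1%. Far2 itself had 40, 40 and 22 fragments in the wild-type libraries and 28, 19 and 31 in the knockout libraries, so the gene-level counts do not check the genotype labels. Kidney markers were abundant, with 6 of 6 proximal tubule markers tested and a summed level of 2707 to 2854 FPKM (fragments scaled to transcript length and library size) in wild type and 2868 to 2912 in knockout. The 7 principal cell markers summed to 157 to 215 FPKM in wild type and 163 to 193 in knockout, and the 5 distal convoluted tubule markers to 336 to 431 and 373 to 433. The proximal tubule sum was higher in every knockout library. So were the sums of the 5 connecting tubule markers (1943 to 2039 FPKM in wild type, 2070 to 2496 in knockout) and the 5 thick ascending limb markers (1375 to 1504 and 1506 to 1692). Abundant genes weigh most in these sums, such as Klk1 at a mean of 1210 FPKM and Umod at 995. Taken singly in FPKM, Trpv5 alone among the markers of these lists had groups that did not overlap. In CPM (fragments scaled to library size), Klk1, Umod and Slc5a2 also separated with knockout higher, and Cldn16 with knockout lower. How often such sums separate for other genes was not counted. The edgeR log2 fold change was above 0 for 5 connecting tubule and 4 thick ascending limb markers, and below 0 for Cldn16 of the latter list. No marker of these lists passed edgeR after adjustment, and the part of these sums in the members' values was not tested. Of 6 adrenal cortex markers 1 was tested, Cyp11b1 was at 0 in all libraries, and the list summed to at most 1.68 FPKM. Wild-type library 0 stood apart in injury and macrophage genes. Havcr1, a tubular injury marker, was at 11.3 FPKM there and at 0.339 to 0.492 in the other libraries. The 4 injury markers summed to 39.3 FPKM in that library and to at most 6.72 in any knockout library. The 4 macrophage markers in the table summed to 132 FPKM there and to at most 59.6 in any knockout library. Of these, Lyz2 was at 76.3 FPKM there against at most 20.8 elsewhere, C1qa at 21.4 against 13.1 and C1qb at 20.6 against 13.1. Csf1r was near level, at 13.7 against at most 13.1. Knockout library 2 was high in the 4 fat markers, which summed to 18.8 FPKM there, with Ucp1 at 13 FPKM against at most 2.56 elsewhere. Hba-a1, a hemoglobin gene, was at 0.00181 FPKM in wild-type library 1 and at 98.5 to 153 in the other libraries. Alas2, the other blood marker found, did not stand apart there, at 10.7 FPKM against 7.28 to 12.1 elsewhere. Results that rest on wild-type library 0 are therefore given with and without it, and its part in each result was not tested.

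Promoter windows are shown for Sgk1 and Wnk4, the members with the smallest p in the genotype comparison. They are the 250 bases before a transcript start from RefSeq on GRCm38.p6, all on the plus strand, and the windows were chosen after the values were seen. RefSeq windows matched 7 of the 10 members, with 6 windows for Sgk1. One Sgk1 window, chr10:21993640-21993889, is shown with each AGAACA, on either strand, in capitals, together with the 3 bases between the pair that forms the palindrome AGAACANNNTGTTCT. AGAACA is the core hexamer bound by corticosteroid receptors. The Sgk1 window closest to the end of the gene, chr10:21994416-21994665, has GC boxes (GGGCGG, either strand) and a TATA box (TATAAA) in capitals. The Wnk4 window, chr11:101260317-101260566, has GC boxes in capitals.
Sgk1 window with the palindrome: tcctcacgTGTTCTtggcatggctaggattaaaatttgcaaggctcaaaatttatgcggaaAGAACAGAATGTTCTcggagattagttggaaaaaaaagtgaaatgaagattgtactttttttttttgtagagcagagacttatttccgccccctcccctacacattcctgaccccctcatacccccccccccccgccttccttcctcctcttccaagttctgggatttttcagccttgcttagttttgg
Sgk1 last window: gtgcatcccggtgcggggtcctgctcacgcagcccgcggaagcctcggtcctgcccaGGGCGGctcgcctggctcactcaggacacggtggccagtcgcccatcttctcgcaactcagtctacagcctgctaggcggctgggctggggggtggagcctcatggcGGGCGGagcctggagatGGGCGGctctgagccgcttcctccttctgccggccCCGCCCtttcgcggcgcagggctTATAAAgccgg
Wnk4 window: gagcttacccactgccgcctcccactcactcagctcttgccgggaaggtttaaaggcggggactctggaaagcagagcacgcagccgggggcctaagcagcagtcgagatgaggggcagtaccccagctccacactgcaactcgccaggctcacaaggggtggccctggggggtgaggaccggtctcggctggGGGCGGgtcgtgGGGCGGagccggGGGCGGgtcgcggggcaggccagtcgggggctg

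In the first Sgk1 window the palindrome reads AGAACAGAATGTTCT and lies from 189 to 175 bases before the transcript start. A further copy of the hexamer, on the minus strand, lies from 242 to 237 bases before it. The palindrome was present in 3 of 32851 windows of the same length across the genome, 0.00913%, and the hexamer in 16.1%. Among the 7 matched members, Sgk1 was the 1 with the hexamer, in 3 of its windows. The last Sgk1 window holds 4 GC boxes and 1 TATA box, and the Wnk4 window holds 3 GC boxes. GC boxes were present in 32.7% of all windows and TATA boxes in 12.4%. In total 5 motifs were searched on both strands, the other being CACGTG, found in 6.02% of all windows and in 1 Sgk1 window. A match describes these letters and was not tested as a binding site.

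Over the 6 libraries Wnk1 had the highest level per length, at a mean of 44.6 FPKM, followed by Sgk1 at 37.7 and Hsd11b2 at 16.0. Nedd4l and Scnn1b were both at 11.0 FPKM, Scnn1a at 10.9, Scnn1g at 8.79, Wnk4 at 8.72, Nr3c2 at 6.94 and Klhl3 at 6.22. Among neighbours in this order, the ranges over libraries were separate between Sgk1 and Hsd11b2 and between Hsd11b2 and Nedd4l, and overlapped for every other pair. The members were counted on 240 to 10702 fragments per library.

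**Figure D1:**
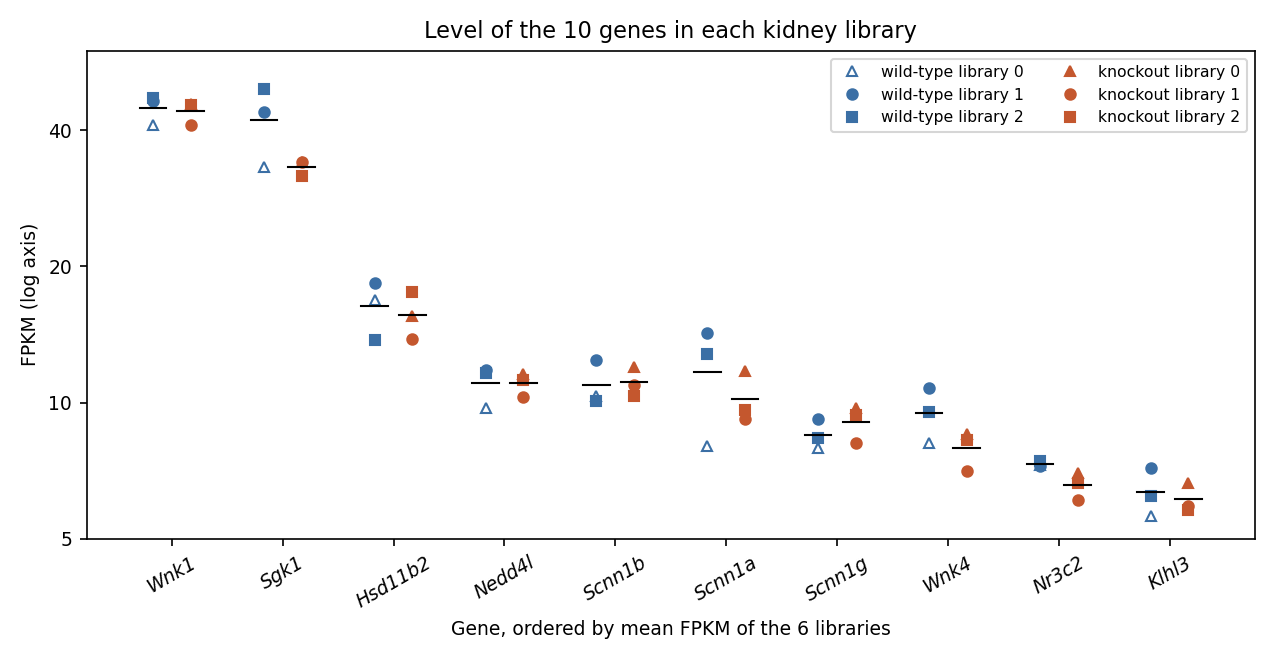
FPKM of each member in each library on a log axis, with triangles, circles and squares for libraries 0, 1 and 2, an open triangle for wild-type library 0, and a line at each group mean; near-equal libraries cover each other. Wnk1 and Sgk1 sit above 30 FPKM in every library, and the open triangle is the lowest wild-type point for 7 of the 10 genes.

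No member passed the test between the genotypes. After Benjamini-Hochberg adjustment over all genes, edgeR called 0 of the 10, beside 0% of all tested genes. The fitted log2 fold change was below 0 for 8 members and above 0 for Scnn1g and Nedd4l, with a median of −0.09 over the members and −0.01 over all tested genes. In mean FPKM 8 members were also lower in knockout, but Scnn1b was slightly higher and Nedd4l slightly lower. At an unadjusted p under 0.05, 2 members were lower, Sgk1 and Wnk4, where 5.14% of all tested genes were lower and 8.31% differed in either direction. DESeq2 also called 0 members, beside 0.0906% of the genes it tested. Nr3c2 was the 1 member whose groups did not overlap, a pattern with knockout lower that 6.96% of tested genes share.

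The channel subunits come first. Scnn1a encodes the alpha subunit, which the channel needs for conduction. Its level was 8.0, 14.3 and 12.8 FPKM in the wild-type libraries 0, 1 and 2 and 11.7, 9.20 and 9.63 in the knockout libraries. Wild-type library 0 was the lowest of all and the other wild-type libraries the highest, so the groups overlapped. The knockout to wild-type log2 fold change was −0.24 ± 0.20 (SE), with a 95% confidence interval of −0.70 to 0.21 and an adjusted p of 0.720 by edgeR.

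Scnn1b, the beta subunit, was at 10.4, 12.4 and 10.1 FPKM in wild type and 12, 11.0 and 10.3 in knockout. The knockout values lay within the wild-type range, and the log2 fold change was −0.01 ± 0.10 (SE; adjusted p = 0.987 by edgeR). Scnn1g, the gamma subunit, was at 7.93, 9.18 and 8.36 FPKM in wild type and 9.71, 8.13 and 9.41 in knockout. The groups overlapped, with a log2 fold change of 0.10 ± 0.10 (SE; adjusted p = 0.771 by edgeR). The 95% intervals of the log2 fold change were −0.24 to 0.22 for Scnn1b and −0.12 to 0.32 for Scnn1g. The genes for the beta and gamma subunits are neighbours on chromosome 7, 96562 bases apart.

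The ratio of Scnn1b to Scnn1a in FPKM was 1.29, 0.868 and 0.787 in wild type and 1.02, 1.19 and 1.07 in knockout. For Scnn1g over Scnn1a it was 0.992, 0.643 and 0.651 in wild type and 0.827, 0.884 and 0.977 in knockout. Wild-type library 0 had the highest value of both ratios, while the other wild-type libraries had the lowest. These ratios were chosen after the values were seen and were not tested.

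Nr3c2 encodes the mineralocorticoid receptor. Its level was 7.27, 7.25 and 7.41 FPKM in wild type and 6.98, 6.08 and 6.63 in knockout, so every knockout library lay below every wild-type library. The log2 fold change was −0.14 ± 0.08 (SE), with a 95% interval of −0.33 to 0.04 (adjusted p = 0.627 by edgeR). Hsd11b2 encodes the enzyme that inactivates corticosterone and so keeps it from the receptor. It was at 16.8, 18.4 and 13.7 FPKM in wild type and 15.5, 13.8 and 17.5 in knockout, with overlapping groups and a log2 fold change of −0.07 ± 0.12 (SE; adjusted p = 0.871 by edgeR).

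Sgk1 encodes the kinase that aldosterone and glucocorticoids induce. It was at 33.1, 43.8 and 49.3 FPKM in wild type and 34.1, 34.0 and 31.7 in knockout. The knockout libraries lay close together, wild-type library 0 was level with them, and the other wild-type libraries were higher. The log2 fold change was −0.33 ± 0.14 (SE), with a 95% interval of −0.64 to −0.02, which is 0.640 to 0.988 times the wild-type level. The unadjusted p was 0.0402 and the adjusted p 0.599 by edgeR. In the authors' deposited table Sgk1 had a p of 0.0047 and a q of 0.238.

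Nedd4l, the ligase that SGK1 inhibits, was at 9.73, 11.8 and 11.6 FPKM in wild type and 11.6, 10.3 and 11.2 in knockout. The groups overlapped, and the log2 fold change was 0.01 ± 0.09 (SE), with a 95% interval of −0.20 to 0.22 (adjusted p = 0.976 by edgeR). The ratio of Sgk1 to Nedd4l in FPKM, chosen after the values were seen and not tested, was 3.40, 3.71 and 4.25 in wild type and 2.94, 3.31 and 2.82 in knockout. Every knockout library was below every wild-type library in this ratio.

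Wnk1 encodes a kinase that activates SPAK and OSR1, and in the distal nephron it is also made as a shorter kidney-specific form without most of the kinase domain. The gene-level values cannot separate the forms. Wnk1 was at 41.0, 46.5 and 47.2 FPKM in wild type and 45.8, 41.2 and 45.6 in knockout, at a log2 fold change of −0.03 ± 0.09 (SE; adjusted p = 0.944 by edgeR). Its groups overlapped. The Wnk1 locus on chromosome 6 (119923969 to 120038672) also holds Mir706, and Klhl3 on chromosome 13 (58000228 to 58113592) holds Mir874, so fragments of those genes may be shared. Scnn1a and Wnk1 lie on the chromosome of Far2, 22.7 and 28.0 Mb from its start.

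Wnk4 encodes the WNK kinase of the distal convoluted tubule. It was at 8.15, 10.8 and 9.52 FPKM in wild type and 8.54, 7.05 and 8.28 in knockout. Knockout library 1 was the lowest, and wild-type library 0 lay among the knockout libraries. The log2 fold change was −0.31 ± 0.13 (SE), with a 95% interval of −0.59 to −0.02, an unadjusted p of 0.0377 and an adjusted p of 0.599 by edgeR. In the authors' deposited table Wnk4 had a p of 0.0341 and a q of 0.595. Klhl3, the substrate adaptor that marks WNK kinases for degradation, was at 5.63, 7.17 and 6.21 FPKM in wild type and 6.66, 5.90 and 5.79 in knockout. The groups overlapped, with a log2 fold change of −0.11 ± 0.12 (SE; adjusted p = 0.788 by edgeR).

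The ratio of Wnk1 to Wnk4 in FPKM was 5.03, 4.31 and 4.96 in wild type and 5.37, 5.84 and 5.51 in knockout, so every knockout library was higher. This pair was also chosen after the values were seen. Of the 6 ratios computed, this one and Sgk1 over Nedd4l had groups that did not overlap. Neither was tested, and how often the ratios of other gene pairs separate in this way was not counted.

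Wild-type library 0 bears on several of these values. In CPM (fragments scaled to library size by edgeR's TMM method) it was the lowest wild-type library for 9 of the 10 members, a place it took for 32.5% of all tested genes. In FPKM it was the lowest for 7 of the 10, against 20% of all tested genes. Without it, the edgeR log2 fold change was −0.48 for Scnn1a (unadjusted p = 0.00119), −0.49 for Sgk1 (0.000365) and −0.44 for Wnk4 (0.00169), where 7.06% of tested genes were lower at an unadjusted p under 0.05. The adjusted p by edgeR was then 0.253 for Scnn1a, 0.241 for Sgk1 and 0.275 for Wnk4, so no member passed.

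Leaving out either of the other wild-type libraries moved these values the other way. Without wild-type library 1, which had the highest levels of Scnn1a and Wnk4, the edgeR log2 fold change was −0.06 for Scnn1a (unadjusted p = 0.759) and −0.18 for Wnk4 (0.163). Without wild-type library 2, which had the highest level of Sgk1, it was −0.17 for Sgk1 (unadjusted p = 0.187) and −0.15 for Scnn1a (0.513). Leaving out a knockout library moved them in either direction. Without knockout library 0 the values were −0.344 for Scnn1a, −0.339 for Sgk1 and −0.343 for Wnk4. Without knockout library 1 they were −0.18, −0.36 and −0.23 in the same order. Without knockout library 2 the values were −0.21 for Scnn1a, −0.29 for Sgk1 and −0.34 for Wnk4. By edgeR, leaving out any library other than wild-type library 0 left 0 members at an unadjusted p under 0.05. The smallest was 0.0516, for Wnk4 without knockout library 0.

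DESeq2 without wild-type library 0 did call members, and which ones depended on the genes given to it. On the filtered genes it called Sgk1 (log2 fold change −0.49, adjusted p = 0.0105) and Scnn1a (−0.48, adjusted p = 0.0482), where 0.298% of tested genes were called lower, and Wnk4 had an adjusted p of 0.0850. On all genes with at least 1 fragment, the gene set that had been fitted first, it called Sgk1 (adjusted p = 0.0117) and not Scnn1a (0.0556), and Wnk4 had 0.0893. The filtered set was taken after the total numbers of calls by the first fit had been seen. Over all settings tried, the adjusted p ranged from 0.0105 to 1.0 for Sgk1, from 0.0482 to 1.0 for Scnn1a and from 0.0850 to 1.0 for Wnk4.

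**Figure D2:**
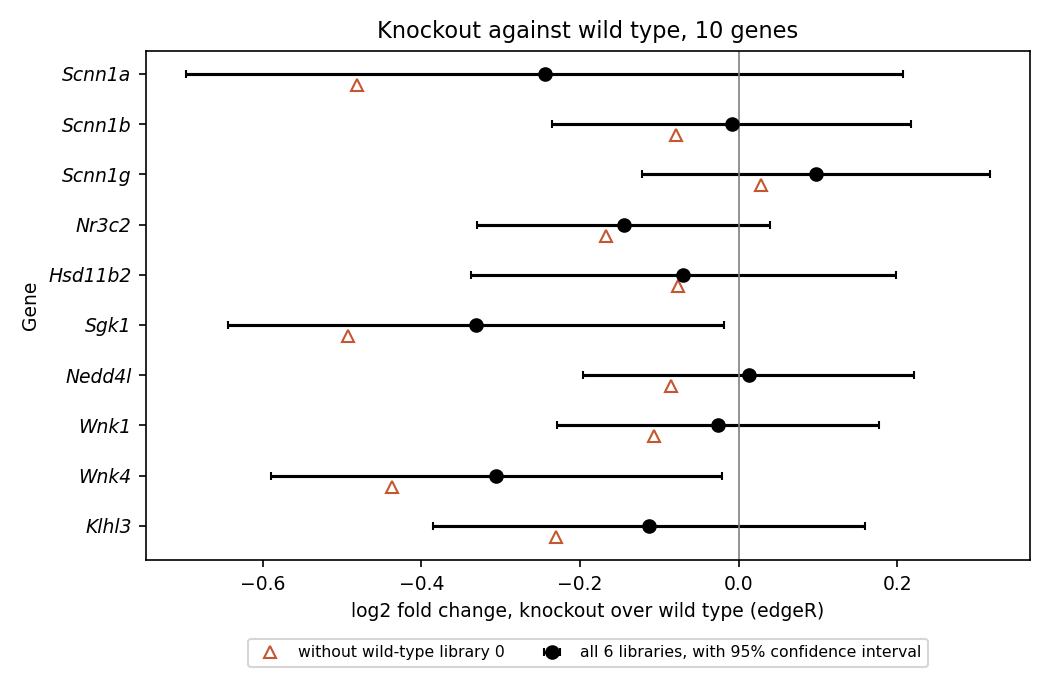
Knockout to wild-type log2 fold change of each member by edgeR, as points with 95% confidence intervals over all 6 libraries and as open triangles without wild-type library 0. The intervals of Sgk1 and Wnk4 end just below 0, and without wild-type library 0 the values of Scnn1a, Sgk1 and Wnk4 lie at −0.48, −0.49 and −0.44.

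The other genes of the pathway were taken as 4 lists of 59 genes, of which 58 were tested. By edgeR 0 of the 58 passed after adjustment, and at an unadjusted p under 0.05 there were 7 lower and 2 higher, 15.5% of the list genes beside 8.31% of all tested genes. The lists were chosen with earlier results of these data known, so these shares are a description and were not tested. Of the 18 genes for channel proteases, the ubiquitin system and scaffolds, the edgeR log2 fold change was above 0 for 9 and below 0 for 9 (mean FPKM higher for 7 and lower for 11), at a median log2 fold change of 0.00, and 1 was higher and 4 lower at an unadjusted p under 0.05. Prss8, a protease that activates the channel, was the 1 higher gene, at 156, 138 and 150 FPKM in wild type and 167, 185 and 165 in knockout. The log2 fold change was 0.18 ± 0.08 (SE; adjusted p = 0.599 by edgeR), and its groups did not overlap. The share of all tested genes that separate with knockout higher was not counted. Without knockout library 1 the Prss8 log2 fold change was 0.12 (unadjusted p = 0.160 by edgeR), and without wild-type library 0 it was 0.18 (0.0766). In CPM, Spint2, Ywhab and Ywhae of this list separated with knockout lower, a pattern that 6.96% of tested genes share. Ywhae, a 14-3-3 protein of the family that binds phosphorylated NEDD4L, had the smallest p of the list, with a log2 fold change of −0.16 ± 0.06 (SE; adjusted p = 0.599). By level the list was led by Prss8, Ywhaz and Ywhae, and Ywhaz, another 14-3-3 protein, averaged 143 FPKM with a log2 fold change of 0.00.

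Of the 16 corticosteroid receptor and target genes, the edgeR log2 fold change was above 0 for 10 and below 0 for 6 (mean FPKM higher for 9 and lower for 7), with a median of 0.02, and 3 were lower at an unadjusted p under 0.05. Tsc22d3, which encodes the glucocorticoid-induced leucine zipper protein, had the smallest p. It was at 22.3, 31.6 and 32.3 FPKM in wild type and 22.5, 20.7 and 20.4 in knockout. As with Sgk1, wild-type library 0 was level with the knockout libraries. Its log2 fold change was −0.45 ± 0.14 (SE; adjusted p = 0.599 by edgeR). Per1, a clock gene that aldosterone and glucocorticoids induce, and Zbtb16, a transcription factor, were picked after their values were seen and had log2 fold changes of −0.66 ± 0.23 and −1.14 ± 0.43 (SE; adjusted p = 0.599 for both by edgeR). Zbtb16 was at 7.26 FPKM in wild-type library 1 and at most 3.23 elsewhere, and without that library its log2 fold change was −0.43 (unadjusted p = 0.179). The most abundant genes of the list were the chaperones Hsp90ab1 and Hsp90aa1 and the feedback regulator Errfi1, with log2 fold changes of 0.03, 0.26 and −0.03. Fkbp5, another glucocorticoid target, had a log2 fold change of 0.01.

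Without wild-type library 0, DESeq2 called Per1 (adjusted p = 0.00132), Tsc22d3 (1.6e-05) and Usp2 (0.000403) as lower on the filtered genes, where 0.298% of all tested genes were called lower. It called the same 3 list genes on all genes with a fragment, while edgeR called no gene of the 4 lists. With all 6 libraries, DESeq2 gave adjusted p of 0.346 for Per1, 0.346 for Tsc22d3 and 0.683 for Usp2. With any other single library left out, DESeq2 called none of these 3 genes. The smallest adjusted p was then 0.528, for Tsc22d3 without knockout library 0. By DESeq2, Usp2 was at −0.26 without wild-type library 1 (unadjusted p = 0.105), and Per1 at −0.46 without wild-type library 2 (0.0670). Usp2 encodes a deubiquitinase of the channel and was picked after its values were seen. Its level was 18.1, 27.4 and 25.8 FPKM in wild type and 19.4, 16.6 and 19.4 in knockout, with a log2 fold change of −0.37 ± 0.15 (SE; adjusted p = 0.599 by edgeR).

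**Figure D3:**
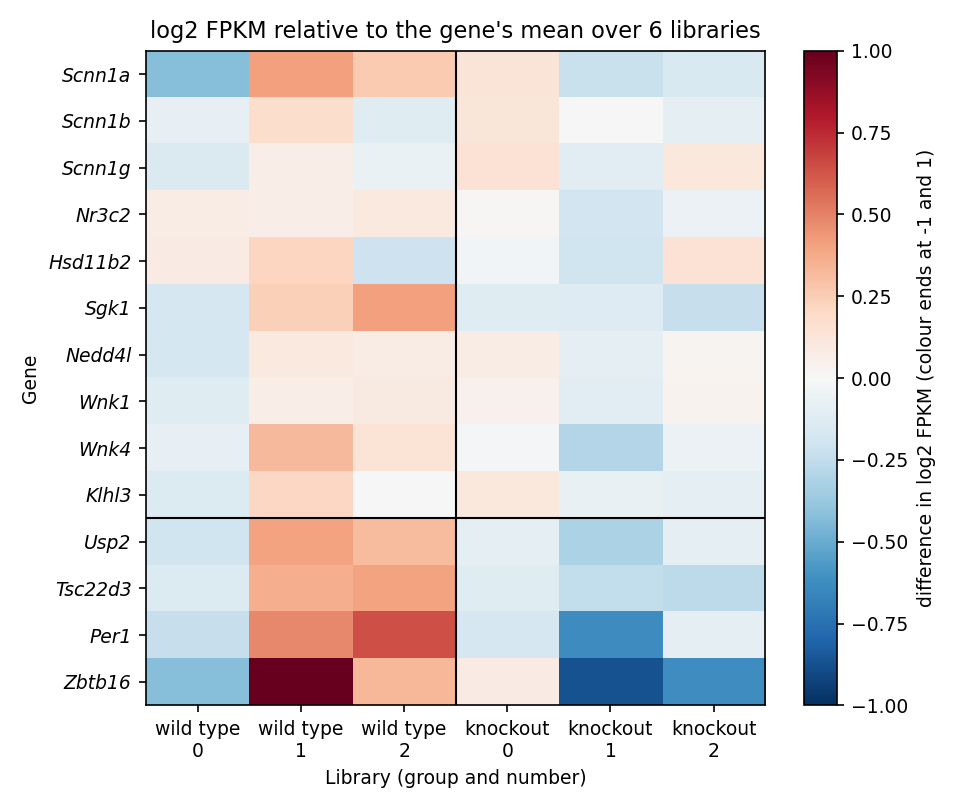
Difference of log2 FPKM from each gene's mean over the 6 libraries, with libraries in columns and genes in rows, members above the line and 4 list genes, picked after their values were seen, below it. Wild-type libraries 1 and 2 are above the mean for Scnn1a, Sgk1, Wnk4 and all 4 list genes, while wild-type library 0 is below it for the same genes.

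Of the 17 genes of the WNK, SPAK and OSR1 cascade and its transporters, the edgeR log2 fold change was above 0 for 11 and below 0 for 6 (mean FPKM higher for 12 and lower for 5), with a median of 0.04. With all 6 libraries Stk39, which encodes SPAK, was the 1 gene of this list at an unadjusted p under 0.05. It was at 13.2, 12.4 and 12.9 FPKM in wild type and 15.0, 14 and 13.8 in knockout. Every knockout library was higher, a pattern whose share of all tested genes was not counted. The log2 fold change was 0.17 ± 0.08 (SE; adjusted p = 0.599 by edgeR). Without wild-type library 0, Stk39 stayed at 0.17 with an unadjusted p of 0.0814 by edgeR. The list then had 1 gene higher and 2 lower at an unadjusted p under 0.05, namely Cab39, Slc12a3 and Kcnj10. In that fit 7.06% of tested genes were lower, and 0 of the list passed after adjustment. Slc12a3, the thiazide-sensitive sodium chloride cotransporter, had a log2 fold change of −0.11 ± 0.10 (SE), and Slc12a1, the cotransporter of the thick ascending limb, 0.11 ± 0.10. Kcnj16, a basolateral potassium channel subunit, had 0.07 ± 0.07. Of the 7 tested genes for potassium channels and the sodium pump, the edgeR log2 fold change was above 0 for 4 and below 0 for 3 (mean FPKM higher for 5 and lower for 2), with a median of 0.08 and none at an unadjusted p under 0.05. Among the most abundant were the pump genes Fxyd2 and Atp1b1, with log2 fold changes of 0.08 and −0.04.

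**Figure D4:**
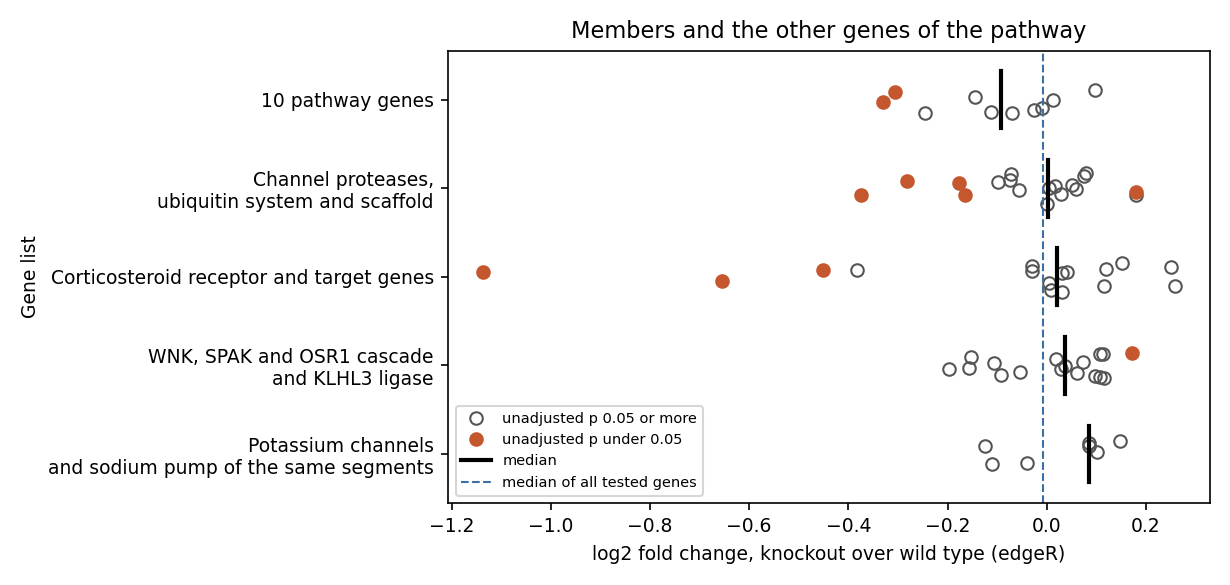
Knockout to wild-type log2 fold change by edgeR for the 10 members and the tested genes of the 4 lists, one point a gene, filled at an unadjusted p under 0.05, with each list's median as a bar and the median of all tested genes as a dashed line. The medians of the lists lie between 0.00 and 0.08, that of the members at −0.09, and no point passed after adjustment.

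Among the members, the pair with the highest correlation of log2 CPM over the 6 libraries was Scnn1a with Klhl3 (r = 0.959), followed by Nedd4l with Wnk1 (0.957), and the lowest was Hsd11b2 with Sgk1 (−0.171). The genes most like the mean log2 CPM of the 3 subunits were Arhgef7 (r = 0.992), Efnb1 (0.988), Ehd3 (0.983), Agap1 (0.980) and Man2a1 (0.979), out of 10729 genes compared, of which 36 reached 0.95. The subunit mean was lowest in wild-type library 0, at 4.92, and highest in wild-type library 1, at 5.42. With 6 points that share library and depth, these correlations are descriptions.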

How the data were processed

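Per the labels' protocols, libraries were stranded and made from total RNA of frozen right kidneys after depletion of ribosomal RNA. Per the submitters' processing notes, the tools, in no stated order, were Cuffdiff, Cufflinks 2.2.1, TopHat2 2.0.13, SAMtools 1.2, Bowtie2 2.2.3 and cutadapt 1.2.1, on mm10. The sources used here do not state the gene models, the strand setting or how multiply aligned fragments were treated. The deposited values are, for every gene and library, an estimated count of its fragments and an FPKM scaled by the authors. Per the file headers, the authors' comparison gives log2 fold changes, a p-value and a q-value per gene. Library numbers in the table match no sample label, so libraries are tied to a group only. Each library was taken as 1 mouse of its group. The p-values set the difference between groups against the variation between these libraries.

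Counts were rounded and genes filtered (filterByExpr). TMM scaling was followed by the two-sided quasi-likelihood test of edgeR 4.0.16 in R 4.3.3, without covariates, at a Benjamini-Hochberg adjusted p under 0.05. DESeq2 1.42.0 and limma 3.58.1 were alternatives. The scripts were tested on simulated data. Annotation was GENCODE on GRCm38. The members and lists were chosen with earlier results of these data known. The rule for named genes takes all members, then the called genes of each list or, with none called, the 3 with the highest mean FPKM and the 1 with the smallest p. It also takes the 5 genes most like the subunit mean. Other genes were chosen after their values were seen. A result that this rule would name is not reported here.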

Additional observations from a re-analysis of the deposited data

How the results depend on the processing

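The number of genes called by edgeR, 0, became 1 without a filter on low counts, with robust dispersion or at an adjusted p under 0.10. Limma-voom with quality weights called 1. DESeq2 called 13 on the filtered genes and 11 on all genes with a fragment. Leaving out 1 library at a time gave 0 to 53 calls over edgeR and DESeq2, the highest by DESeq2 without wild-type library 0 (40 on all genes with a fragment, the set fitted first), and 288 to 1615 genes at an unadjusted p under 0.05, where all libraries gave 1193 by edgeR. Calls among the members ranged from 0 to 2, and members at an unadjusted p under 0.05 from 0 to 3. That last number was 1 with limma-voom, robust dispersion and limma on log2(FPKM + 1) or log2(FPKM + 0.1). Without wild-type library 0, DESeq2 gave log2 fold changes of −0.477 for Scnn1a and −0.487 for Sgk1 (−0.481 on all genes with a fragment). With 1 library left out, Scnn1a ranged from −0.481 to −0.0638, Sgk1 from −0.492 to −0.161 and Wnk4 from −0.437 to −0.184.

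Some members with small differences changed sign. Scnn1b was 0.0196 and 0.0214 on the 2 FPKM scales, 0.00214 by DESeq2 on all genes and 0.00115 with quality weights, and −0.0785 to 0.101 with 1 library left out. Nedd4l was −0.00289 with upper-quartile scaling and −0.00133 with quality weights, and −0.0858 to 0.0891 with 1 library left out. The ranges were −0.173 to 0.0382 for Hsd11b2, −0.106 to 0.0541 for Wnk1 and −0.231 to 0.011 for Klhl3. The cause was not tested. DESeq2 with libraries left out, DESeq2 on all genes with a fragment and quality weights were added after the data were seen. The labels give no pairing between mice, so no paired analysis was run. Counting depth limits Klhl3 most, with 240 fragments in its lowest library.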
